A study of Homo sapiens with 13 samples.

Results

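The genes described here are long non-coding RNA genes that host small nucleolar RNAs (snoRNAs) in their introns. The list named 10 genes by symbol, namely GAS5, SNHG1, SNHG5, SNHG6, SNHG8, SNHG12, SNHG15, SNHG16, ZFAS1 and EPB41L4A-AS1. Of the 43836 genes in the count table, 9 matched the list by Ensembl identifier. ZFAS1 matched no entry and was not analysed here. All 9 passed the filter on low counts, and each was covered by 493 to 7185 reads in every library.

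Messenger RNA was sequenced from hFOB 1.19 osteoblasts, a human fetal cell line that was immortalized and grows in culture. Positive controls (PC, 2 libraries) were grown in medium with 10% fetal bovine serum (FBS), and negative controls (NC, 2 libraries) were serum-starved. Serum-starved cells in the other groups received 1 µg/mL of resveratrol (RES, 3 libraries), of peonidin-3-glucoside (POG, 3 libraries) or of the compound labelled DEG (2 libraries analysed of 3 labelled). The treatment notes name delphinidin-3-glucoside beside the other compounds but do not spell out the letters DEG. Per the study's methods, both control groups carried the vehicle DMSO, and all cells came from a single immortalized line. Nothing in the labels says that the libraries of a group came from separate cultures, so the tests below measure the spread between these libraries, which may be technical.

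The libraries held 38464619 to 51416358 counted reads. The collagen genes COL1A1 and COL1A2, SPARC and RUNX2 were well covered, with COL1A1 at 2460 to 2870 CPM, the read count scaled to library size. Of the other osteoblast markers, SP7 had 53 reads and IBSP had 1 read over all libraries and both fell below the filter. A list of 12 markers of blood, endothelial, epithelial, fat, cartilage and osteoclast cells summed to 3.54 to 6.13 CPM, with 6 of the 12 passing the filter and ADIPOQ at 1 read over all libraries. That sum was 5.21 to 6.13 CPM in RES and 3.54 to 4.33 CPM in POG, and its part in the results was not tested. Mitochondrial genes took 3.03% to 3.92% of the reads, with the lowest shares in DEG and the highest in PC. In bulk RNA, fewer cells carrying a transcript and less of it per cell cannot be told apart.

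A snoRNA host gene is transcribed as a long precursor, and its introns are trimmed into snoRNAs that guide ribose methylation (box C/D) or pseudouridylation (box H/ACA) of ribosomal RNA. The spliced exons of the hosts described here carry no long reading frame. Many such transcripts are read briefly by ribosomes and destroyed by nonsense-mediated decay, so their level depends on transcription and on translation. Several hosts begin with a run of pyrimidines, the terminal oligopyrimidine (TOP) element that is typical of ribosomal protein genes. GAS5 took its name, growth arrest specific, from its accumulation in cells that had stopped growing. The libraries were made from polyadenylated RNA. The snoRNAs themselves were not analysed here, and every value below is a count per host gene, not per spliced transcript. For SNHG1, SNHG8, SNHG15 and EPB41L4A-AS1, the annotated exons of all transcripts together cover the whole span of the gene. Reads from introns of the spliced form may therefore be counted there, and reads of overlapping genes may be included.

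All 9 genes are annotated on hg38 as spliced long non-coding RNA genes. GAS5 (ENSG00000234741.7) lies on chromosome 1 from 173858559 to 173868882 on the minus strand. SNHG1 (ENSG00000255717.6) lies on chromosome 11 from 62851978 to 62855953 and SNHG5 (ENSG00000203875.10) on chromosome 6 from 85650491 to 85678932, both on the minus strand. SNHG8 (ENSG00000269893.6) lies on chromosome 4 from 118278703 to 118285316 on the plus strand. SNHG12 (ENSG00000197989.13) lies on chromosome 1 from 28578538 to 28583132 and SNHG15 (ENSG00000232956.8) on chromosome 7 from 44983019 to 44986961, both on the minus strand. SNHG16 (ENSG00000163597.14) lies on chromosome 17 from 76557727 to 76670985 and EPB41L4A-AS1 (ENSG00000224032.6) on chromosome 5 from 112160526 to 112164818, both on the plus strand.

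Because a TOP element begins at the first transcribed base, the letters around annotated starts are shown. They are given for the 5 genes with a pyrimidine run that begins within 5 bases of an annotated start. The printed runs of SNHG8 and SNHG16 begin at positions -5 and 6, not at the start itself. RefSeq starts (GRCh38.p14) were matched for 7 of the 9 genes, and SNHG6 and SNHG15 had no entry. Each window reads 5′ to 3′ along the transcript, with 30 bases before the start and 20 from it onwards. Capitals mark a C within 5 bases of the start together with the 4 or more pyrimidines that follow it.
SNHG5, chr6:85678714-85678763, minus strand: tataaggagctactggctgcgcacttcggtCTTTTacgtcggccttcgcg
SNHG8, chr4:118278732-118278781, plus strand: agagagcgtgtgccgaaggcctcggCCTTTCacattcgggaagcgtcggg
SNHG12, chr1:28581854-28581903, minus strand: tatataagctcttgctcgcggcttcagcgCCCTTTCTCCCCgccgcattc
SNHG16, chr17:76557734-76557783, plus strand: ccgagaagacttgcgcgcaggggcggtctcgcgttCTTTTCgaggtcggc
GAS5, GENCODE canonical start, chr1:173867970-173868019, minus strand: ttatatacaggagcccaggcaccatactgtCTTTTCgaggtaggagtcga

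At RefSeq starts, 4 of the 7 genes held such a run, and so did 21.1% of 27305 RefSeq promoters. Under a narrower definition, in which the whole pyrimidine run itself has to begin with C, 2 of the 7 genes (SNHG8 and SNHG12) and 13.6% of the promoters held it. The start chosen changes the picture. GAS5 has no run at its RefSeq start, which lies 1056 bases from the GENCODE canonical start printed above. SNHG5 and SNHG16 have no run by the first definition at their canonical starts, which lie 15 and 11 bases from their RefSeq starts. At canonical starts, 3 of the 7 genes and 17.7% of 43177 windows held a run by the first definition, and 0 of the 7 and 11.6% of the windows by the narrower one. The motif TATATAA, searched on both strands 40 to 20 bases before the start, was found for SNHG5 and SNHG12 at RefSeq starts (0.729% of promoters) and for GAS5 at its canonical start (0.602% of windows). The motif GAATTC, which reads alike on both strands, stood directly before the RefSeq starts of GAS5 and EPB41L4A-AS1 and of 0.0659% of promoters. The canonical windows of GAS5 and SNHG16 share the 12 letters tcttttcgaggt, which occur in 2 of the 43177 windows. That shared run was looked for after the sequences had been seen. SNHG1 and EPB41L4A-AS1 held no run at either start by the first definition.

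Levels between genes are given per kilobase of transcript, since a longer RNA yields more reads. On the length of the GENCODE canonical transcript, SNHG16 at 175 and GAS5 at 152 CPM per kilobase were the most abundant over the 12 libraries. SNHG1 followed at 69.7, SNHG5 at 47.1, SNHG6 at 25.7 and SNHG12 at 16.9 CPM per kilobase. EPB41L4A-AS1 at 7.44, SNHG15 at 4.64 and SNHG8 at 4.28 CPM per kilobase had the lowest values. Their canonical transcripts are long, at 3511, 2998 and 6166 bases, beside 768 bases for GAS5 and 498 for SNHG16. Divided by the length of all annotated exons instead, GAS5 came first at 23.7 CPM per kilobase, and SNHG16 at 15.1 stood below SNHG1 and SNHG6. At the low end, SNHG5 at 4.92 then stood below EPB41L4A-AS1 at 6.08, and SNHG15 at 3.53 below SNHG8 at 3.99. The order at the top and at the low end therefore rests on the length used.

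The levels in each library are plotted below by group.

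**Figure D1:**
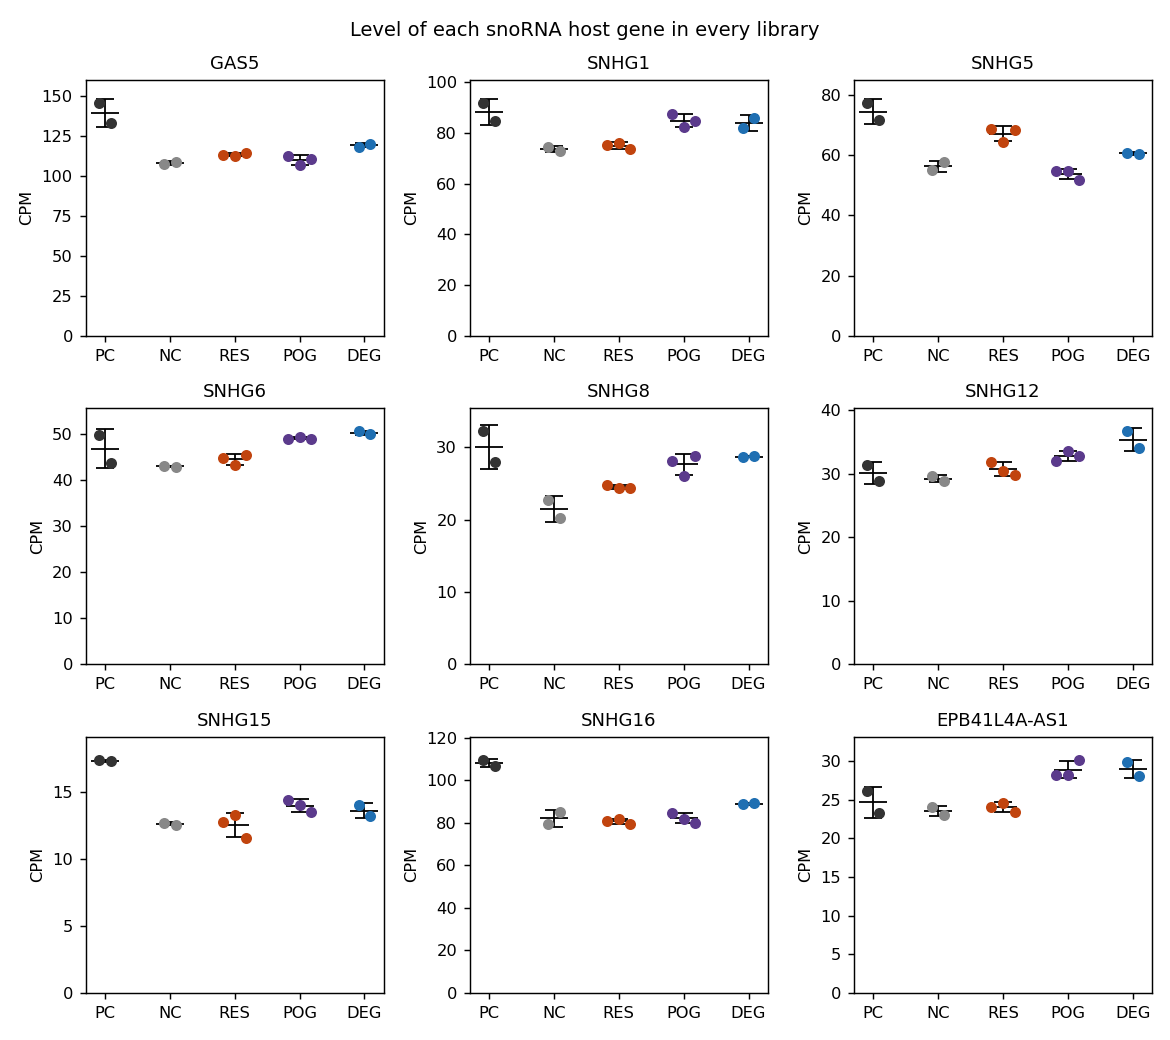
CPM of each of the 9 host genes (y axis, from 0, one panel per gene) by group (x axis), with a point per library and a black line and bars for the mean ± SD of the group. PC libraries are the highest for GAS5, SNHG5, SNHG15 and SNHG16, while the POG and DEG libraries lie above the NC libraries for SNHG1, SNHG6, SNHG8, SNHG12 and EPB41L4A-AS1.

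The first comparison asked what serum does to the host transcripts. With serum, 6 of the 9 host genes were higher than in negative controls and 0 were lower, by edgeR's exact test at a false discovery rate (FDR) under 0.05. Of all 17092 genes tested, 42.4% were called in this comparison, 21.4% higher and 20.9% lower. The median log2 fold change was 0.37 over the 9 genes and -0.0059 over all genes. PC and NC libraries did not overlap for 7 of the 9 genes, which was so for 65.6% of all genes. GAS5, SNHG5, SNHG8, SNHG15 and SNHG16 were 28.9% to 39.99% higher with serum, and SNHG1 was 19.8% higher.

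GAS5, the host named for growth arrest, was counted at 145 and 133 CPM in PC and at 107 and 109 CPM in NC. The PC libraries lay above every other library, so the transcript was lower in serum-starved cells and not higher. Its log2 fold change was 0.37 ± 0.04 (SE, n = 2 and 2) with an FDR of 3.43e-15 by edgeR. SNHG16, which hosts box C/D snoRNAs of the SNORD1 family, had 110 and 107 CPM in PC and 79.4 and 85.0 CPM in NC. No other group reached the PC level, and the log2 fold change was 0.40 ± 0.04 (SE) with an edgeR FDR of 2.6e-17. SNHG15, host of the box H/ACA RNA SNORA9, had 17.4 and 17.3 CPM in PC and 12.7 and 12.6 CPM in NC. It was the least covered of the 9 genes, yet its PC libraries stood clear of all others and its log2 fold change was 0.46 ± 0.08 (SE, edgeR FDR = 1.61e-07).

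SNHG5, which hosts the SNORD50 pair, was counted at 77.2 and 71.5 CPM in PC and at 54.8 and 57.6 CPM in NC, a log2 fold change of 0.40 ± 0.05 (SE, edgeR FDR = 6.86e-14). SNHG8, host of SNORA24, had 32.2 and 27.9 CPM in PC and 22.8 and 20.2 CPM in NC. It showed the highest log2 fold change of the 9 genes with serum, 0.49 ± 0.07 (SE, edgeR FDR = 2.17e-10). SNHG1, whose introns hold a series of box C/D snoRNAs, had 91.8 and 84.6 CPM in PC and 74.5 and 72.8 CPM in NC. Its PC and NC libraries did not overlap, and the log2 fold change was 0.26 ± 0.05 (SE, edgeR FDR = 6.02e-07).

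The other 3 genes did not pass the test with serum. SNHG6 (ENSG00000245910.8), host of SNORD87, lies on chromosome 8 from 66920561 to 66926398 on the minus strand. It had 49.8 and 43.8 CPM in PC and 43.1 and 43.0 CPM in NC, and its log2 difference of 0.12 (95% interval 0.01 to 0.23) had an edgeR FDR of 0.0616. Without the second PC library SNHG6 would pass, with an FDR of 0.000365. SNHG12, host of box H/ACA and box C/D snoRNAs, had 31.4 and 28.9 CPM in PC and 29.7 and 28.8 CPM in NC, so the groups overlapped. EPB41L4A-AS1, host of SNORA13, had 26.1 and 23.3 CPM in PC and 24.0 and 23.1 CPM in NC, which also overlapped. The 95% intervals of their log2 differences were -0.08 to 0.17 for SNHG12 and -0.07 to 0.21 for EPB41L4A-AS1, with edgeR FDRs of 0.61 and 0.45. All 9 genes were higher in the first PC library than in the second, by 0.635% to 15.2%, and the part of that library in the results was not tested beyond leaving it out. The 6 calls held without either PC library.

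The difference of each gene from negative controls is drawn for serum and for each compound. These 4 comparisons share the same 2 NC libraries and are not independent of each other. In each of them 0 of the 9 genes were lower than in NC even at an unadjusted p under 0.05 by the exact test, and 0 by edgeR's quasi-likelihood test and DESeq2 at an FDR under 0.05.

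**Figure D2:**
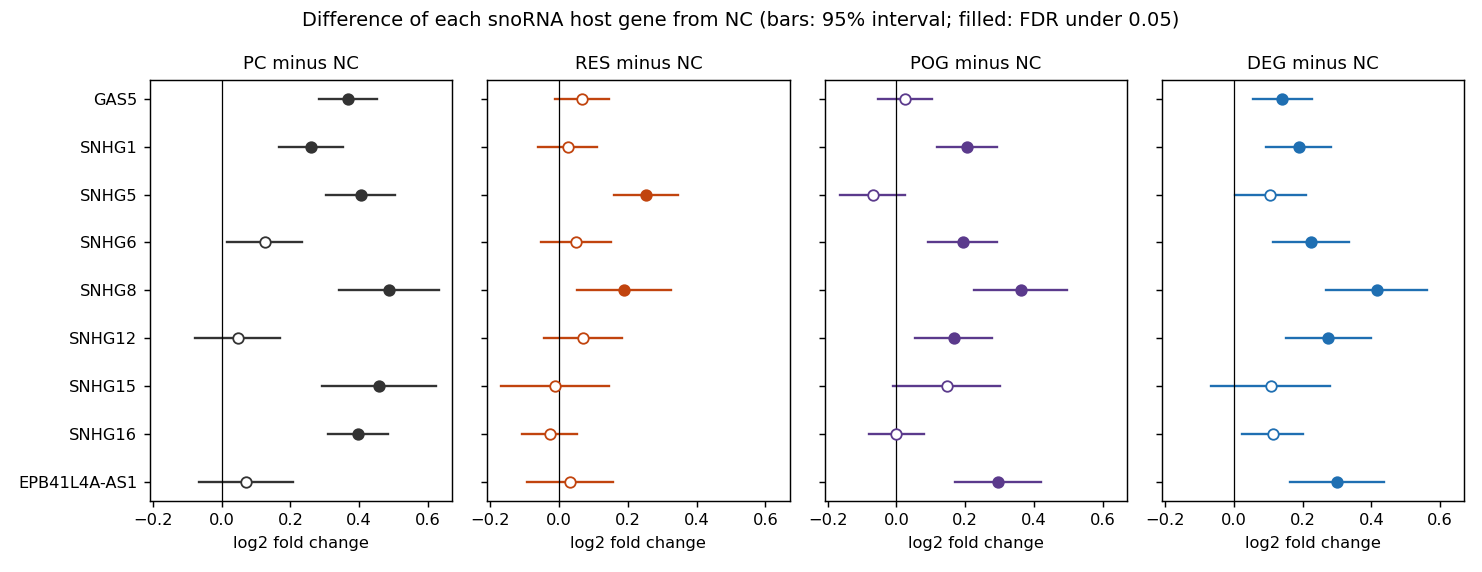
log2 fold change from NC (x axis) of the 9 host genes (y axis) for PC, RES, POG and DEG, one panel each, with bars for the 95% interval and filled points for an FDR under 0.05 by edgeR's exact test. GAS5, SNHG5, SNHG15 and SNHG16 are filled in the PC panel but not in the POG panel, where SNHG1, SNHG6, SNHG8, SNHG12 and EPB41L4A-AS1 are filled.

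Resveratrol raised 2 of the 9 host genes over negative controls, SNHG5 and SNHG8, and lowered 0. In this comparison 11.2% of all genes were called, 4.94% higher and 6.21% lower. The median log2 fold change of the 9 genes was 0.05. SNHG5 had 68.5, 64.1 and 68.3 CPM in RES beside 54.8 and 57.6 CPM in NC. All RES libraries lay above both NC libraries and below both PC libraries, and SNHG5 was 19.2% higher than in NC, a log2 fold change of 0.25 ± 0.05 (SE, n = 3 and 2, edgeR FDR = 6.46e-06). SNHG8 had 24.7, 24.3 and 24.4 CPM in RES, narrowly above the NC value of 22.8 CPM. Its log2 fold change of 0.19 ± 0.07 (SE) had an edgeR FDR of 0.0497. That call was lost without the second NC library (FDR = 0.578), without each RES library in turn (FDR = 0.13, 0.0962 and 0.0996) and with DESeq2 (FDR = 0.113).

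GAS5 had 113, 112 and 114 CPM in RES, above the 107 and 109 CPM of NC in every library but by 4.74% on average. Its log2 difference of 0.07 (95% interval -0.01 to 0.14) did not pass the test (edgeR FDR = 0.342). SNHG1, SNHG6, SNHG12, SNHG15, SNHG16 and EPB41L4A-AS1 differed from NC by -0.03 to 0.07 on the log2 scale, with FDRs of 0.52 to 0.973. Of these, SNHG6 and SNHG12 did not overlap with NC, although their highest NC and lowest RES libraries lay close together. In all, 5 of the 9 genes had RES and NC libraries that did not overlap, against 40.9% of all genes.

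Peonidin-3-glucoside raised 5 of the 9 host genes over negative controls and lowered 0, where 14.5% of all genes were called, 5.93% higher and 8.57% lower. POG and NC libraries did not overlap for 7 of the 9 genes and for 44.1% of all genes. The median log2 fold change of the 9 genes was 0.17. The 5 genes were SNHG1, SNHG6, SNHG8, SNHG12 and EPB41L4A-AS1, at 12.2% to 28.5% above NC. SNHG8 had 28.1, 26 and 28.7 CPM in POG beside 22.8 and 20.2 CPM in NC, a log2 fold change of 0.36 ± 0.07 (SE, n = 3 and 2, edgeR FDR = 2.56e-06). EPB41L4A-AS1 had 28.2, 28.3 and 30.2 CPM in POG beside 24.0 and 23.1 CPM in NC. Every POG library of EPB41L4A-AS1 also lay above both PC libraries, and its log2 fold change over NC was 0.30 ± 0.06 (SE, edgeR FDR = 4.96e-05).

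SNHG1 had 87.7, 82.2 and 84.8 CPM in POG, all above NC, with a log2 fold change of 0.20 ± 0.04 (SE, edgeR FDR = 0.000114). SNHG6 had 49.0, 49.5 and 49.0 CPM in POG and 43.1 and 43.0 CPM in NC. The libraries of each group were nearly equal, and the log2 fold change was 0.19 ± 0.05 (SE, edgeR FDR = 0.00236). Without the second NC library the FDR of SNHG6 was 0.0528. SNHG12 had 32.1, 33.5 and 32.9 CPM in POG and 29.7 and 28.8 CPM in NC, a log2 fold change of 0.17 ± 0.06 (SE, edgeR FDR = 0.0276). The SNHG12 call was lost without the first NC library (FDR = 0.107), the second NC library (0.244), the second POG library (0.107) or the third (0.0761), and with DESeq2 (0.0746).

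GAS5, SNHG5, SNHG15 and SNHG16, all called with serum, were not called with POG. GAS5 had 112, 107 and 111 CPM, which overlapped with NC, and its log2 difference was 0.02 with a 95% interval of -0.05 to 0.10 (edgeR FDR = 0.791). SNHG16 had 84.7, 81.7 and 80.1 CPM, all within the range of NC, and its 95% interval was -0.08 to 0.08. SNHG5 had 54.6, 54.6 and 51.6 CPM, just under both NC libraries, with a log2 difference of -0.07 (95% interval -0.16 to 0.03, edgeR FDR = 0.397). SNHG15 had 14.5, 14 and 13.5 CPM, all above NC, but its log2 difference of 0.15 did not pass (edgeR FDR = 0.217).

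The compound labelled DEG raised 6 of the 9 host genes over negative controls and lowered 0, where 9.63% of all genes were called, 3.52% higher and 6.11% lower. The median log2 fold change was 0.19. Both DEG libraries lay above both NC libraries for all 9 genes, which was so in either direction for 51.8% of all genes. SNHG8 had 28.6 and 28.7 CPM in DEG and 22.8 and 20.2 CPM in NC, a log2 fold change of 0.41 ± 0.07 (SE, n = 2 and 2, edgeR FDR = 1.11e-06). EPB41L4A-AS1 had 29.8 and 28.1 CPM in DEG, 23.2% above NC, with a log2 fold change of 0.30 ± 0.07 (SE, edgeR FDR = 0.000367). Both DEG libraries of EPB41L4A-AS1 lay above both PC libraries too.

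SNHG12 had 36.7 and 34.1 CPM in DEG, above all libraries of every other group, and its log2 fold change over NC was 0.28 ± 0.06 (SE, edgeR FDR = 0.00032). SNHG6 had 50.6 and 50.0 CPM in DEG and was 16.9% higher than in NC, with a log2 fold change of 0.23 ± 0.05 (SE, edgeR FDR = 0.00157). SNHG1 had 81.8 and 86.1 CPM in DEG, a log2 fold change of 0.19 ± 0.05 (SE, edgeR FDR = 0.00291). GAS5 had 118 and 120 CPM in DEG, between the NC and the PC libraries, and its log2 fold change was 0.14 ± 0.04 (SE, edgeR FDR = 0.0244). Some of these calls needed every library. GAS5 lost its call without the first NC library (FDR = 0.225), the second NC library (0.102), the first DEG library (0.114) or the second (0.222). SNHG1 lost it without the second NC library (0.0818) or the second DEG library (0.156), and SNHG12 without the first DEG library (0.0667).

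SNHG16 had 88.6 and 89.1 CPM in DEG, above NC by a log2 difference of 0.11 (95% interval 0.03 to 0.20) with an edgeR FDR of 0.108. SNHG5 had 60.7 and 60.2 CPM, a log2 difference of 0.11 (95% interval 0.00 to 0.21, FDR = 0.23). SNHG15 had 14 and 13.2 CPM, a log2 difference of 0.11 (95% interval -0.07 to 0.28, FDR = 0.535). These genes therefore stood between the NC and the PC libraries without passing the test against NC.

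The compounds were given at the same dose and were also compared with each other directly, in 3 pairs. Peonidin-3-glucoside is an anthocyanin and resveratrol is a stilbene, and the compound behind the label DEG is not spelled out.

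**Figure D3:**
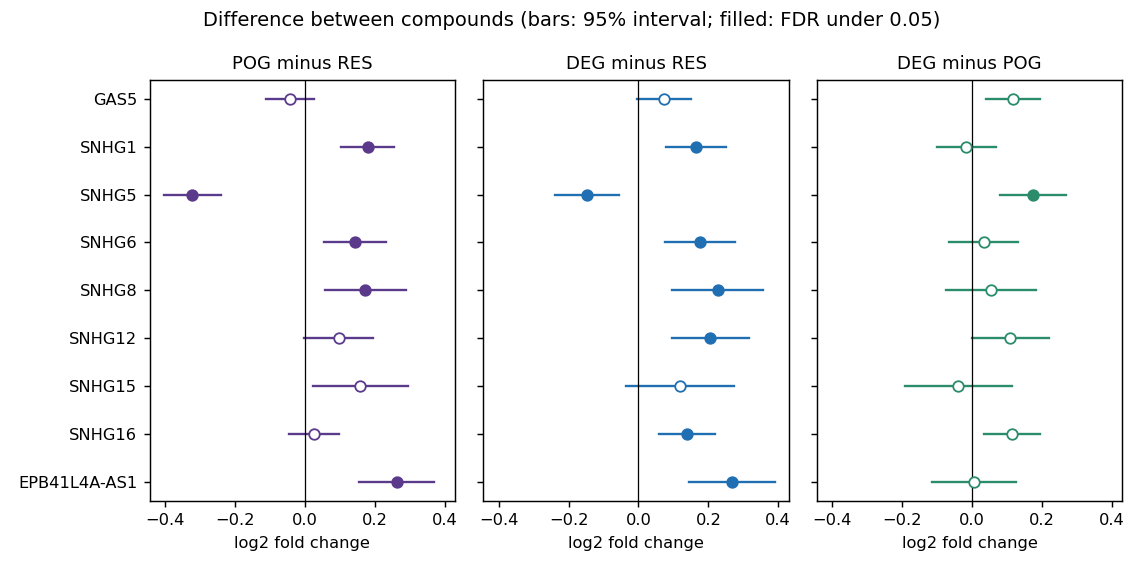
log2 fold change between compounds (x axis) of the 9 host genes (y axis) for POG minus RES, DEG minus RES and DEG minus POG, one panel each, with bars for the 95% interval and filled points for an FDR under 0.05 by edgeR's exact test. SNHG5 lies to the left of 0 against RES in both of the first panels and to the right in the third, and SNHG1, SNHG6, SNHG8 and EPB41L4A-AS1 lie to the right of 0 in both of the first panels.

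Between POG and RES, 4 host genes were higher with POG (SNHG1, SNHG6, SNHG8 and EPB41L4A-AS1) and SNHG5 was lower, where 27.9% of all genes were called, 13.7% higher and 14.1% lower. The libraries did not overlap for 7 of the 9 genes and for 42.1% of all genes. SNHG5 had the largest log2 difference of the 9 genes, at 64.1 to 68.5 CPM in RES and 51.6 to 54.6 CPM in POG. The change was -19.99% with POG, a log2 fold change of -0.32 ± 0.04 (SE, n = 3 and 3, edgeR FDR = 9.31e-13). EPB41L4A-AS1 went the other way, at 23.5 to 24.7 CPM in RES and 28.2 to 30.2 CPM in POG, a log2 fold change of 0.26 ± 0.05 (SE, edgeR FDR = 1.4e-05). SNHG1 was 13.3% higher with POG (edgeR FDR = 5.15e-05), SNHG6 was 10.5% higher (FDR = 0.00707) and SNHG8 was 12.7% higher (FDR = 0.0135). Leaving out a library lost SNHG6 without the second RES library (FDR = 0.0636). It lost SNHG8 without the second RES library (0.0525), the first POG library (0.0672) or the third (0.101). GAS5 did not differ between the compounds beyond its error, with a 95% interval of -0.11 to 0.03, and neither did SNHG16, with an interval of -0.05 to 0.10.

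Between DEG and RES, 6 host genes were higher with DEG and SNHG5 was lower, where 21.2% of all genes were called, 10.3% higher and 10.8% lower. The libraries did not overlap for 8 of the 9 genes and for 48.4% of all genes. EPB41L4A-AS1 was 20.4% higher (edgeR FDR = 0.000178), SNHG8 was 17.0% higher (FDR = 0.00445), SNHG12 was 15.3% higher (FDR = 0.00216) and SNHG6 was 12.99% higher (FDR = 0.00414). SNHG1 was 12.0% higher (edgeR FDR = 0.00222) and SNHG16 was 10.2% higher (FDR = 0.00623). SNHG5 fell to 60.7 and 60.2 CPM in DEG from 64.1 to 68.5 CPM in RES, a log2 fold change of -0.15 ± 0.05 (SE, n = 2 and 3, edgeR FDR = 0.0126). The count of 7 calls was 2 without the first DEG library and 3 without the second. The SNHG5 call was also lost without the first RES library (FDR = 0.0675) or the third (0.0632).

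Between DEG and POG, 1 of the 9 genes was called, SNHG5, which was 12.9% higher with DEG (log2 fold change 0.17 ± 0.05, SE, n = 2 and 3, edgeR FDR = 0.0337). In this comparison 1.05% of all genes were called, 0.55% higher and 0.497% lower. The libraries did not overlap for 5 of the 9 genes and for 31.9% of all genes. The SNHG5 call was lost without any of the 5 libraries (FDR = 0.0741 to 0.346) and with edgeR's quasi-likelihood test (0.0743). For EPB41L4A-AS1 the 95% interval of the difference was -0.12 to 0.13 on the log2 scale, for SNHG1 it was -0.10 to 0.07 and for SNHG6 it was -0.07 to 0.13. GAS5 and SNHG16 were 8.36% and 8.20% higher with DEG, with 95% intervals of 0.04 to 0.19 and 0.03 to 0.19, but did not pass over all genes (edgeR FDR = 0.162 and 0.186).

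Ordering the 5 groups by mean level placed PC highest for 6 genes and DEG highest for 3 (SNHG6, SNHG12 and EPB41L4A-AS1). NC was lowest for 6 genes, RES for SNHG15 and SNHG16, and POG for SNHG5. For GAS5 the means ± SD were 139 ± 8.86 CPM in PC, 119 ± 1.41 in DEG, 113 ± 0.782 in RES, 110 ± 2.91 in POG and 108 ± 1.23 in NC. PC differed from its neighbour DEG (edgeR FDR = 2.27e-06), while DEG and RES, RES and POG, and POG and NC did not pass as neighbours. For SNHG5 the means ± SD were 74.3 ± 4.03 CPM in PC, 67.0 ± 2.46 in RES, 60.5 ± 0.341 in DEG, 56.2 ± 1.92 in NC and 53.6 ± 1.71 in POG. Here PC differed from RES (edgeR FDR = 0.00306) and RES from DEG (0.0126), and the lower neighbours did not pass. The call between PC and RES was lost without the first PC library (0.0973) and with plain library totals (0.139).

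For SNHG8 the means ± SD were 30.0 ± 3.0 CPM in PC, 28.7 ± 0.0733 in DEG, 27.6 ± 1.42 in POG, 24.5 ± 0.227 in RES and 21.5 ± 1.78 in NC, and PC, DEG and POG could not be ranked by the tests of neighbours (edgeR FDR = 0.464 and 0.861). For EPB41L4A-AS1 the means ± SD were 29.0 ± 1.199 CPM in DEG, 28.9 ± 1.11 in POG, 24.7 ± 2.01 in PC, 24.1 ± 0.606 in RES and 23.5 ± 0.681 in NC. POG stood above PC by a log2 fold change of 0.22 (edgeR FDR = 0.000621), a call lost without the second PC library (0.0806), and the other neighbours did not pass. For SNHG12 and SNHG6 no pair of neighbours passed, although for SNHG12 DEG stood above PC by a log2 fold change of 0.23 (edgeR FDR = 0.000631, and 0.0555 without the first DEG library). Against PC, RES was lower for 6 of the 9 genes and higher for 0 (45.7% of all genes called, 23.2% lower and 22.5% higher). POG was lower than PC for 4 and higher for 1 (47.9% of all genes called, 24.2% lower and 23.8% higher), and DEG was lower for 4 and higher for 2 (43.4% of all genes called, 22.3% lower and 21.1% higher). These counts moved when a library was left out or the scaling was changed. For POG against PC they were 3 higher and 4 lower without the first PC library or with plain library totals, and 0 higher and 6 lower without the second PC library. For DEG against PC they were 3 higher and 4 lower without the first PC library or with plain totals, 1 higher and 6 lower without the second, and 0 higher and 4 lower without the first DEG library. For RES against PC 5 to 7 genes were lower and 0 higher when a PC library was left out.

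Within the series the 9 transcripts did not move as a block. Over the 12 libraries, the log2 CPM of GAS5 was most like that of ATP5MK (Pearson r = 0.982), NACA (0.971), RPL36 (0.971), NDUFAB1 (0.97) and P4HA2 (0.969). Only the 11104 genes that averaged 5 CPM or more were ranked. Of the other host genes, SNHG16 was closest at 0.944, followed by SNHG15 at 0.799, SNHG5 at 0.782, SNHG8 at 0.673 and SNHG1 at 0.627. SNHG6 stood at 0.248, SNHG12 at -0.03 and EPB41L4A-AS1 at -0.06. These values are descriptions across libraries that include both PC libraries, whose level sets much of the correlation. In the 10 serum-free libraries the genes most like GAS5 were MSL1 (0.951), ATP5MK (0.927), CAND1 (0.902), TUBB6 (0.896) and DUSP8 (0.888), and the order of the host genes was another one. SNHG16 stood at 0.677, SNHG8 at 0.559, SNHG12 at 0.545 and SNHG5 at 0.476. Below them came SNHG6 at 0.456, SNHG1 at 0.342, EPB41L4A-AS1 at 0.306 and SNHG15 at 0.0385.

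Another set of host genes varied together in the serum-free libraries. The pairs among SNHG1, SNHG6, SNHG8, SNHG12 and EPB41L4A-AS1 had Pearson r of 0.729 to 0.921 over the 10 libraries, with SNHG6 and EPB41L4A-AS1 the closest. These are the genes called with POG. SNHG15, which was not called with POG, had r of 0.612 to 0.793 with them, so the set has no sharp edge. SNHG5 had a negative r with 7 of the other 8 host genes there (-0.03 to -0.57) and 0.476 with GAS5. The 10 libraries fall into 4 groups, so the correlations restate differences between groups to a large part and carry no test.

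Other genes of the same pathway were read from fixed lists. These are the remaining non-coding hosts, protein-coding genes that carry snoRNAs, and the core proteins of the snoRNA particle. NOP56 and DKC1 stand both among the protein-coding hosts and among the core proteins, so the counts of these lists are not independent.

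**Figure D4:**
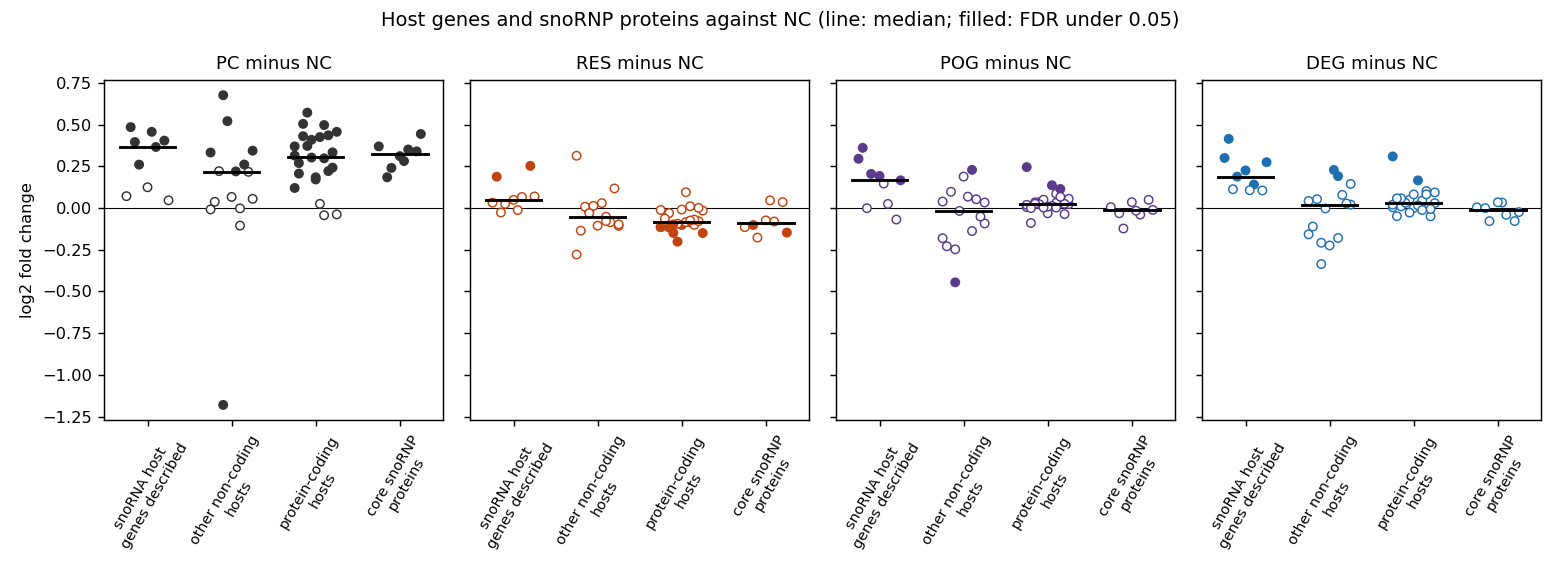
log2 fold change from NC (y axis) of 9 host genes described, 15 other non-coding hosts, 24 protein-coding hosts and 8 core snoRNP proteins (x axis), one panel each for PC, RES, POG and DEG. Each point is a gene, filled at an FDR under 0.05, and the line is the median of the list, which with POG and DEG lies at 0.17 and 0.19 for the host genes described and between -0.02 and 0.03 for the other lists.

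With serum, the rise extended to the lists around the 9 genes, where 42.4% of all genes were called, 21.4% higher and 20.9% lower. All 8 core snoRNP proteins were higher, among them NHP2 (log2 fold change 0.44), the pseudouridine synthase DKC1 (0.37) and the methyltransferase fibrillarin, FBL (0.35). Of 24 protein-coding hosts 21 were higher and 0 lower, led by RPL3 (0.57), the chaperone HSPA8 (0.50) and EEF1B2 (0.50). Of 15 other non-coding hosts 6 were higher, with SNHG4 (0.68) and SNHG3 (0.52) at the top, and SNHG14 was lower at -1.18 (edgeR FDR = 0.0223). The remaining 8 were not called, so the part of this list called in either direction was near that of all genes. TOP translation genes were higher in 11 of 13 and lower in 0, including the elongation factors EEF2 (0.37) and EEF1A1 (0.37). Of this list, EEF1B2, EEF2, TPT1 and RACK1 are also counted among the protein-coding hosts, here and in the other comparisons. The counts of 0 lower stayed at 0 for these lists at an unadjusted p under 0.05 by edgeR and with DESeq2, and DESeq2 did not call SNHG14. Their medians were 0.33 for the snoRNP proteins, 0.31 for the protein-coding hosts, 0.22 for the other non-coding hosts and 0.22 for the TOP translation genes.

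With resveratrol, the calls in these lists went the opposite way to SNHG5 and SNHG8, apart from the other non-coding hosts. Of all genes, 11.2% were called with RES, 4.94% higher and 6.21% lower. Protein-coding hosts were lower in 7 of 24 and higher in 0, for example RPSA (log2 fold change -0.20) and RPL4 (-0.15). TOP translation genes were lower in 6 of 13 and higher in 0, with EEF1A1 at -0.18 and EIF3F at -0.17. Among snoRNP proteins 2 of 8 were lower, NHP2 (-0.15) and NOP56 (-0.10), and among the other non-coding hosts 0 of 15 were called either way (1 higher and 2 lower at an unadjusted p under 0.05 by edgeR, 0 with DESeq2). At an unadjusted p under 0.05, 1 protein-coding host and 0 TOP translation genes were higher, and DESeq2 gave 1 and 0. None of the 9 host genes described was called lower with RES.

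With POG 14.5% of all genes and with DEG 9.63% were called in either direction, which is the background for the counts of these lists. Of the 8 snoRNP proteins 0 were called with either compound by edgeR, also at an unadjusted p under 0.05, and 0 by DESeq2. Protein-coding hosts were higher in 3 of 24 with POG (3 higher and 1 lower with DESeq2 and with edgeR's quasi-likelihood test) and 2 of 24 with DEG, and TAF1D, a subunit of the RNA polymerase I factor SL1, led both at log2 fold changes of 0.25 and 0.31, followed by the helicase gene EIF4A2 at 0.14 and 0.17. Of the other 15 non-coding hosts, SNHG32 was higher with POG (0.23) and SNHG4 lower (-0.45), and with DEG SNHG18 (0.23) and SNHG32 (0.19) were higher. TOP translation genes were called in 2 of 13 with POG, EEF1A1 (0.16) and the poly(A)-binding protein gene PABPC1 (0.09), with 3 higher and 1 lower by DESeq2 and by edgeR's quasi-likelihood test, and in 0 of 13 with DEG (2 at an unadjusted p under 0.05, 1 with DESeq2). Set against RES directly, 15 of 24 protein-coding hosts were higher with POG and 15 with DEG by edgeR, and 0 were lower, also at an unadjusted p under 0.05 or with DESeq2. Of all genes, 13.7% were called higher with POG than with RES and 10.3% higher with DEG than with RES.

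Factors of nonsense-mediated decay, the pathway that destroys many spliced host transcripts, were read against the shares of all genes called in either direction, 42.4% for serum and, among the compounds, 11.2% for RES, 14.5% for POG and 9.63% for DEG. With serum 2 of 10 were higher and 2 lower, with the kinase SMG1 at -0.34, SMG5 at -0.29 and the helicase UPF1 at 0.17 on the log2 scale. UPF3A was the single call with RES (0.14) and UPF3B the single call with POG (0.18, with 0 called by DESeq2), and 0 of 10 were called with DEG by edgeR (1 at an unadjusted p under 0.05 and 1 with DESeq2). Genes that mark growth and arrest moved with serum in both directions, 5 higher and 5 lower of 13, with CCND1 at 1.12, MYC at 1.01 and the cell cycle inhibitor CDKN1A at -0.46. With RES, 1 of the 13 was higher and 5 lower, including MKI67 (-0.19) and MYC (-0.16). GAS1, which like GAS5 is named for growth arrest, fell by 0.44 on the log2 scale with POG and by 0.53 with DEG. CCND1, which rose with serum, fell by 0.23 with POG, while CDK1 rose by 0.18 with DEG. In all, 3 of the 13 were lower and 3 higher with POG, and 3 lower and 2 higher with DEG. The part of growth state and of decay factors in the host gene results was not tested.

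Several host genes overlap or face a neighbour, and the strand setting used for counting is not given in the sources used here. Reads of genes that overlap on opposite strands may therefore have been assigned to either. ZBTB37 starts 800 bases from the GAS5 start on the other strand and was higher with POG (log2 fold change 0.21, edgeR FDR = 0.0464) and not called with serum (-0.12, FDR = 0.268). SLC3A2, the amino acid transporter subunit gene that starts 51 bases from SNHG1 on the other strand, was lower with serum at -0.16 (edgeR FDR = 0.000931), opposite to SNHG1. With POG and DEG, SLC3A2 was at 0.03 (FDR = 0.719) and 0.07 (FDR = 0.363), where SNHG1 was called higher.

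PRSS12 overlaps 2487 exonic bases of SNHG8 and was counted at 25.8 to 37.0 CPM, beside 20.2 to 32.2 CPM for SNHG8. It was higher with serum (log2 fold change 0.36, edgeR FDR = 1.38e-06), while its differences with POG (0.09, FDR = 0.439) and DEG (0.02, FDR = 0.921) did not pass. The part of PRSS12 reads in the SNHG8 values was not tested. MCMDC2 overlaps 1488 exonic bases of SNHG6 at 0.277 to 0.604 CPM, and TRNAU1AP overlaps 8 bases of SNHG12 and was not called against NC in any comparison. EPB41L4A overlaps 2200 exonic bases of EPB41L4A-AS1 and was below the filter. PKMP3 and an unnamed coding gene model share exonic bases with SNHG5 on the same strand, of which PKMP3 was counted at 0.201 to 0.852 CPM. ST6GALNAC2 and an unnamed gene model lie opposite SNHG16, at 1.11 to 2.68 and 0.696 to 2.11 CPM.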

How the data were processed

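Polyadenylated RNA from hFOB 1.19 cells was sequenced as read pairs. Per the labels and the study's methods, the authors aligned the reads to hg38 with STAR (BWA MEM is also named) and counted reads per Ensembl gene with featureCounts. They deposited these raw counts unchanged, and the tool versions, the annotation release, the strand setting and the handling of reads with several matches are not given in the sources used here. The third DEG sample matched no column and was not analysed here. Symbols were assigned to 43214 of the 43836 identifiers.

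From the counts, library sizes were scaled by the TMM method of edgeR 4.0.16 in R 4.3.3, and filterByExpr kept 17092 genes, which held 99.967% of the reads. Groups were compared with edgeR's exactTest, the test the study names, with dispersions from all 12 libraries (common biological coefficient of variation 3.21%) and Benjamini-Hochberg adjustment over all genes tested. A gene was called at an FDR under 0.05. Standard errors and 95% intervals came from edgeR's quasi-likelihood fit of the same data. CPM values were computed on TMM-scaled totals. Correlations used log2 CPM with a prior count of 2. Start windows came from the RefSeq promoter table (GRCh38.p14) and from GENCODE v44 canonical starts on hg38. Scripts were tested on simulated counts.

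The 10 genes and the other lists were chosen with earlier results of these data known. From each list the text names at most 3 called genes with the largest fold change for PC against NC and at most 2 for other comparisons, besides the neighbours chosen by position and the 5 genes most like GAS5. Alternatives were a stricter FDR of 0.01, the quasi-likelihood test, DESeq2 1.42.0, its size factors, plain library totals, other filters, other dispersion estimates and leaving out each library. The looser definition of the pyrimidine run, the canonical starts and the canonical transcript length were added after the data had been seen. Group sizes of 2 and 3 limit the precision. Some genes are not reported here.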

Additional observations from a re-analysis of the deposited data

Results flagged for a closer look

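These results concern differences between compounds given at the same dose, each found by edgeR's exact test of the difference itself. Between POG and RES, SNHG1 was higher with POG by 0.18 on the log2 scale, SNHG6 by 0.14, SNHG8 by 0.17 and EPB41L4A-AS1 by 0.26, while SNHG5 stood at -0.32. For SNHG1, SNHG5 and EPB41L4A-AS1 the call held in every alternative run, while SNHG6 and SNHG8 lost it when some libraries were left out.

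Between DEG and RES, the log2 differences were 0.16 for SNHG1, 0.18 for SNHG6, 0.23 for SNHG8, 0.21 for SNHG12, 0.14 for SNHG16 and 0.27 for EPB41L4A-AS1, and -0.15 for SNHG5. Of these calls, only that of EPB41L4A-AS1 held in every alternative run. Between DEG and POG, SNHG5 alone passed, at 0.17. That call was lost in 8 of 14 alternatives, including every fit that left out a library. Markers of other cell types summed to 5.21 to 6.13 CPM in RES, 3.54 to 4.33 CPM in POG and 3.97 to 4.29 CPM in DEG, and their part in these differences was not tested.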

How the results depend on the processing

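The 6 calls with serum were kept under each of 12 alternatives run for that comparison. With RES against NC the count of calls fell from 2 to 1 at an FDR under 0.01, with the quasi-likelihood test, with DESeq2, with DESeq2 size factors and with no filter, and was 1 to 2 when a library was left out. With DEG against POG the count of 1 became 0 at an FDR under 0.01, by the quasi-likelihood test or without a filter, became 3 with dispersions from the compared groups alone or without PC, and was 0 in each fit that left out a library. Leaving out a library gave 3 to 5 calls for POG against NC (5 with all) and 2 to 7 for DEG against RES (7 with all). The median likeness of the other host genes to GAS5 fell from 0.65 to 0.466 without PC. The count of genes with a pyrimidine run was 2 by the narrower and 4 by the looser definition, and at canonical starts 0 by the narrower and 3 by the looser.

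Some differences that were not called changed sign. With plain library totals these were SNHG15 (0.0156) and SNHG16 (0.000859) for RES against NC, SNHG16 for POG against NC (0.0233, and 0.00558 with no filter and 0.000177 with a mean of at least 1 CPM), EPB41L4A-AS1 for DEG against POG (-0.000189) and for RES against PC (0.0318), and SNHG1 for POG against PC (0.0116). Leaving out a library in turn gave ranges across 0. Against NC these were -0.0112 to 0.111 for SNHG12 and -0.0113 to 0.158 for EPB41L4A-AS1 with PC, -0.0545 to 0.0442 for SNHG15 and -0.0751 to 0.0266 for SNHG16 with RES, and -0.0487 to 0.052 for SNHG16 with POG. For DEG against POG they were -0.0544 to 0.0194 for SNHG1, -0.0827 to 0.00157 for SNHG15 and -0.0383 to 0.0461 for EPB41L4A-AS1. Against PC they were -0.169 to 0.019 for SNHG6, -0.0397 to 0.0828 for SNHG12 and -0.123 to 0.0457 for EPB41L4A-AS1 with RES, -0.117 to 0.00469 for SNHG1 and -0.0235 to 0.165 for SNHG6 with POG, and -0.173 to 0.034 for SNHG8 with DEG. Over the 90 differences and their alternatives, 1101 values kept their direction and their side of the threshold, 55 lost a call and 22 gained one. The causes were not tested. No paired analysis was possible because the labels carry no replicate numbers and those used here only name the libraries.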
